A study of Mus musculus with 6 samples.

Results

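The p200 family (also HIN-200 or PYHIN family) is a set of interferon-inducible mouse genes that lie side by side on chromosome 1, and 5 of them were followed here, Ifi203, Ifi204, Ifi205, Mndal and Aim2. They were chosen by gene symbol, as members of this family that have been discussed as sensors of DNA, with earlier results of these data known. The 5 genes were among 52349 gene symbols in the count table of the series and fell into 4 of its 51499 loci, because Ifi203 and Mndal had been merged into a single locus. RNA was sequenced from mouse embryonic fibroblasts (MEFs), connective tissue cells grown from mouse embryos, which all carried floxed Yme1l alleles at the start and had been immortalized with SV40 large T antigen. Yme1l (symbol Yme1l1) encodes YME1L, which degrades proteins at the inner membrane of mitochondria with the use of ATP. The groups were WT MEFs, in which the Yme1l fl/fl alleles were intact, and Yme1l-/- MEFs, in which they had been deleted, with 3 cultures each and no treatment named. Both came from individual clones grown after transduction with Cre recombinase, so that a difference between the genotypes cannot be told apart from a difference between clones, and the p-values measure the spread between cultures, which may be technical.

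Most p200 proteins carry a pyrin domain, which binds other pyrin domains, and at least one HIN domain, which binds DNA. AIM2 recognizes double-stranded DNA in the cytosol and recruits the adaptor ASC (gene Pycard), which activates caspase-1 (Casp1) in an inflammasome. The protein encoded by Ifi204 has been described as a DNA sensor that acts together with STING to induce type I interferon, and several p200 proteins are found in the nucleus, where they affect transcription and cell growth. Many of these genes are themselves induced by interferon, which acts through a factor that includes STAT2 and IRF9 at DNA sites with repeated GAAA letters.

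Such sites in the promoters of the family are shown first, since they are a feature of the genes that the expression values did not choose. RefSeq start sites (GRCm38.p6, the build of the deposited coordinates) were given for 12 of 14 family genes looked for, with 250 bases before and 50 bases after the start. Ifi204 and Ifi203-ps were the genes without an entry. An interferon-response-like motif, GAAA followed after any pair of bases by GAAA on either strand, was present in promoters of 9 family genes, among them 3 of the 5 followed here (Ifi203, Mndal and Ifi205), and in 3.44% of all 32851 promoters of the same length. The following stretches of 60 bases are written 5′ to 3′ along each gene, with the motif in capitals; Ifi211 is the other family gene expressed in these cells, and Ifi207 is shown for a copy of the motif with the letters of Ifi203.

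Ifi203: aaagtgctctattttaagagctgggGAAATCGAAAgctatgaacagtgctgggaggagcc
Mndal: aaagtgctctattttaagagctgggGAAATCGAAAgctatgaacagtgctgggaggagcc
Ifi205: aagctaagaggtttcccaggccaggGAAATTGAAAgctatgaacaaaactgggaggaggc
Ifi211: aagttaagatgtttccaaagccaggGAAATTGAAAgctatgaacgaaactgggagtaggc
Ifi207: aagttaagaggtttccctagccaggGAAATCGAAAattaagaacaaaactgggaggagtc

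The Mndal stretch was the same as that of Ifi203 in 60 of 60 bases, although the annotated starts are separate. The motif began 35 bases before the start of Ifi203, 36 before that of Mndal, 37 before that of Ifi211 and 134 before that of Ifi205. On the opposite strand, a further match lay 23 bases after the start of Ifi205 and another 54 bases before a second annotated start of Mndal. The stretches of Ifi211 and Ifi205 equalled that of Ifi203 in 41 and 40 of 60 bases, and their motif differed from it by C6T, counted from 1 at the motif's 5′ end. The exact 10 letters found in Ifi203 were present in promoters of 16 genes in the whole table, and 7 of these were p200 genes (Ifi203, Mndal, Ifi206, Ifi207, Ifi208, Ifi213 and Ifi214). A second motif, TTCNNNGAA, which resembles the gamma-activated sites of interferon-responsive genes, was found in 8.3% of all promoters and, within the family, in that of Ifi202b. The promoter of Aim2 held neither motif, which says only that these letters are not in the window from 173420354 to 173420653 of chromosome 1. It is printed in full for comparison with the motif-bearing promoter of Ifi203, at chr1:173942443-173942742 on the minus strand.

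Aim2: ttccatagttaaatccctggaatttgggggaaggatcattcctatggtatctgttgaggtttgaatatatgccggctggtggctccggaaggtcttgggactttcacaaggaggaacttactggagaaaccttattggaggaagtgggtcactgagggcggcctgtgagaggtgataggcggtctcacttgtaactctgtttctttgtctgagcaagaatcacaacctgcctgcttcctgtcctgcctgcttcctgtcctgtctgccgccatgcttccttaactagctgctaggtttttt
Ifi203: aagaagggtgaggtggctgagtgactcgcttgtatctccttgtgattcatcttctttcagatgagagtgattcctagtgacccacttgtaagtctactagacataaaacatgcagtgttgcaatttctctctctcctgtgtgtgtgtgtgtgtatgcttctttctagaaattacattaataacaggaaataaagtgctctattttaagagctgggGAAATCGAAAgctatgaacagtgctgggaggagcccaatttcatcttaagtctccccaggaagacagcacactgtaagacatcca

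The libraries held between 33180867 and 49351107 fragments in loci, and 3 fragments, the limit that a count of 0 allows, corresponded to 0.0589 to 0.0919 CPM (counts per 1e6 fragments of the library size scaled with TMM factors). Yme1l1 was at 188.7 CPM in WT and 39.1 CPM in Yme1l-/- cells, a log2 fold change of -2.27 ± 0.05 (SE; edgeR's quasi-likelihood test, adjusted p = 2.43e-11), which matched the labels. WT replicate 2 stood apart from the other WT cultures, with a chi-square per degree of freedom of 32.7 and 35.2 against them, where these differed from each other by 12. Yme1l-/- replicate 1 stood apart in its group as well, by 19.8 and 15.6 against 7.91 between the other Yme1l-/- cultures. Values without WT replicate 2 are given below for the Ifi203 and Mndal locus, Ifi204, Ifi205, Il1rn, Enpp1, Zbp1, Trim30a, Usp18 and Irf7. Over all 13867 loci that passed the filter on low counts, 67.7% were called at an adjusted p under 0.05, and 33.6% were called higher in Yme1l-/- cells, so that a call by itself is common in this comparison. Fibroblast markers were abundant in sum, at 10800 to 11400 CPM in WT and 6650 to 7130 CPM in Yme1l-/- cultures. Of 10 such markers, 8 passed the filter, and 6 of these were called lower and 1 higher in Yme1l-/- cells. Thy1 and Lum had at most 11 fragments in any culture.

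Among the 4 loci that held the 5 genes, 3 passed the filter, and 2 of these were called higher in Yme1l-/- cells and 0 lower, with a median log2 fold change of 0.26 over the 3, against -0.0041 over all loci tested. The merged locus of Ifi203 and Mndal was higher by 3.76-fold, Ifi204 was higher by 1.2-fold, Ifi205 did not pass the test, and Aim2 was near the limit of detection in both genotypes. A count of 2 of 3 stands beside the 67.7% called over all loci. In bulk RNA, fewer cells that express a gene and less of its RNA per cell cannot be told apart, and this holds for every value below.

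Ifi203 and Mndal encode p200 proteins of the nucleus, and Mndal has been linked to the control of cell growth. Their merged locus (chromosome 1, 173849126 to 173942672, minus strand, mm10) had 47, 90 and 69 fragments in WT replicates 1 to 3 and 207, 405 and 489 fragments in Yme1l-/- replicates 1 to 3. These counts were 1.42, 2.75 and 2.11 CPM in WT and 5.92, 8.03 and 9.60 CPM in Yme1l-/- cells. The lowest Yme1l-/- culture stood above the highest WT culture, which was WT replicate 2, and such a separation upward was seen in 35.9% of all loci tested. The mean rose from 2.09 ± 0.665 CPM to 7.85 ± 1.85 CPM (SD, n = 3 each), a log2 fold change of 1.91 ± 0.24 (SE; edgeR's quasi-likelihood test, adjusted p = 8.07e-05). The 3.76-fold difference had a 95% interval of 2.57 to 5.51. Without WT replicate 2 the log2 fold change was 2.16, and leaving out Yme1l-/- replicate 1, the lowest of its group, gave 2.07. A log2 fold change of this size or above was found in 547 loci called higher, 3.94% of those tested. The spread among cultures was wide, with a coefficient of variation of 31.7% in WT and 23.5% in Yme1l-/- cells. Mndal extends from 173849126 to 173942491 and Ifi203 from 173920407 to 173942672 in the annotation, so their gene models overlap on the same strand, with 37 exonic bases in common. The counts cannot be divided between them, and whether Ifi203, Mndal or both rose was not tested.

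Ifi204, which encodes the p200 protein described as acting with STING, was the member with the highest level per length (FPKM, given below). It lies at 173747293 to 173766943 of chromosome 1 on the minus strand. The WT cultures had 531, 555 and 615 fragments, or 16, 17.0 and 18.8 CPM, and the Yme1l-/- cultures had 693, 1039 and 1108 fragments, or 19.8, 20.6 and 21.7 CPM. The groups did not overlap, but WT replicate 3 and Yme1l-/- replicate 1 lay close together. The mean rose from 17.3 to 20.7 CPM, a log2 fold change of 0.26 ± 0.08 (SE; edgeR's quasi-likelihood test, adjusted p = 0.00896), with a 95% interval of the fold of 1.07 to 1.35, and it was 0.25 without WT replicate 2 and 0.30 without Yme1l-/- replicate 1. The median log2 fold change over the 794 tested loci of chromosome 1 was -0.15, and once chromosome medians were removed the value for Ifi204 was 0.42.

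Ifi205, another interferon-inducible p200 gene, lies at 174011998 to 174031810 of chromosome 1 on the minus strand. It had 61, 71 and 64 fragments in WT cultures (1.84, 2.17 and 1.96 CPM) and 75, 105 and 134 fragments in Yme1l-/- cultures (2.14, 2.08 and 2.63 CPM). The groups overlapped, since WT replicate 2 was above Yme1l-/- replicates 1 and 2. The mean was 1.99 ± 0.165 CPM in WT and 2.29 ± 0.30 CPM in Yme1l-/- cells (SD, n = 3 each). The log2 fold change of 0.20 ± 0.16 did not pass the test (edgeR's quasi-likelihood test, adjusted p = 0.294), and its 95% interval, 0.896-fold to 1.48-fold, included no difference but left room for a rise by as much as 1.48-fold. Without WT replicate 2 the log2 fold change was 0.27 and did not pass the test either (adjusted p = 0.233).

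Aim2, the sensor that forms an inflammasome on cytosolic DNA, was the member with the fewest fragments. It was the only one of the 5 genes on the plus strand, and its deposited locus ran from 173331886 to 173466040. WT cultures held 3, 5 and 4 fragments (0.0906, 0.153 and 0.123 CPM) and Yme1l-/- cultures 0, 3 and 3 fragments (0, 0.0595 and 0.0589 CPM). At 12 against 6 fragments in total, scaled to library size, the ratio of Yme1l-/- to WT was 0.361, with an exact 95% interval of 0.111 to 1.04 that covers counting error only. Aim2 was below the filter and was not tested. In CPM every WT culture lay above every Yme1l-/- culture, at no more than 5 fragments each. The interval included no difference but left room for a ratio as low as 0.111.

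**Figure D1:**
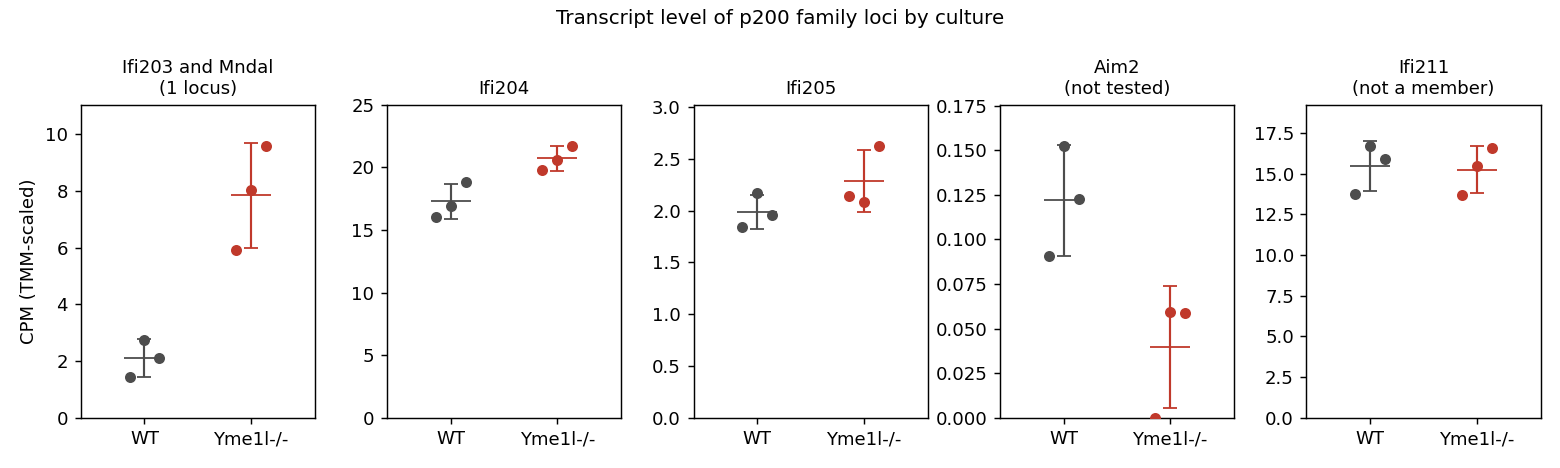
Level of the 4 loci that hold the 5 genes, and of Ifi211, in CPM on linear axes that start at 0 and differ between panels. Points are the 3 cultures of each genotype, and bars give the mean and SD. The Ifi203 and Mndal locus reaches 5.92 to 9.60 CPM in Yme1l-/- cultures against 1.42 to 2.75 CPM in WT, Ifi204 separates by a narrow margin, and Ifi205 and Ifi211 overlap.

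Per length of transcript, in the FPKM values that the authors deposited as 1 combined value per genotype, the order of levels in WT cells was Ifi204 (8.03), Ifi205 (1.24), the Ifi203 and Mndal locus (0.934) and Aim2 (0.0622). In Yme1l-/- cells the order was Ifi204 (9.63), the Ifi203 and Mndal locus (2.94), Ifi205 (1.39) and Aim2 (0.0202). The exchange of places between Ifi205 and the merged locus was a description, with no spread over cultures on this scale. In WT the gap between Ifi205 and the merged locus was of the order of the spread of the latter over cultures (CV of 31.7% in CPM), so that these neighbours in the order were not separated.

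Whether the genotype difference was of the same size in different members was addressed by taking, within each culture, the difference in log2 CPM between a pair of loci. The merged locus lay below Ifi204 by -3.09 ± 0.44 in WT and by -1.43 ± 0.29 in Yme1l-/- cultures (SD, n = 3 each), a shift of 1.67 with no overlap between the groups. The exact two-sided permutation test gave p = 0.1, the smallest that 3 against 3 cultures allow, and 0.15 after adjustment over the 3 pairs. Relative to Ifi205 the merged locus moved from 0.02 ± 0.37 to 1.76 ± 0.26, a shift of 1.74 with the same exact p = 0.1. Ifi204 and Ifi205 differed by 3.12 ± 0.15 in WT and 3.19 ± 0.13 in Yme1l-/- cultures (SD, n = 3 each), a shift of 0.07 in overlapping groups (exact permutation p = 0.6), and a test of this size cannot show that the difference was the same.

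The make-up of the family's RNA differed between the genotypes, given here as a description without a test. All 13 p200 loci together gave 33.4, 39.3 and 39.4 CPM in WT cultures and 41.9, 46.6 and 50.8 CPM in Yme1l-/- cultures. The merged Ifi203 and Mndal locus took 5.53% ± 1.38 of these fragments in WT and 16.8% ± 2.41 in Yme1l-/- cells (SD, n = 3 each). Ifi204 took 46.3% and 44.8%, and Ifi205 took 5.33% and 4.92%. Ifi211 took 41.3% ± 1.13 in WT and 32.9% ± 0.349 in Yme1l-/- cells, while its own level in CPM overlapped between the groups.

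**Figure D2:**
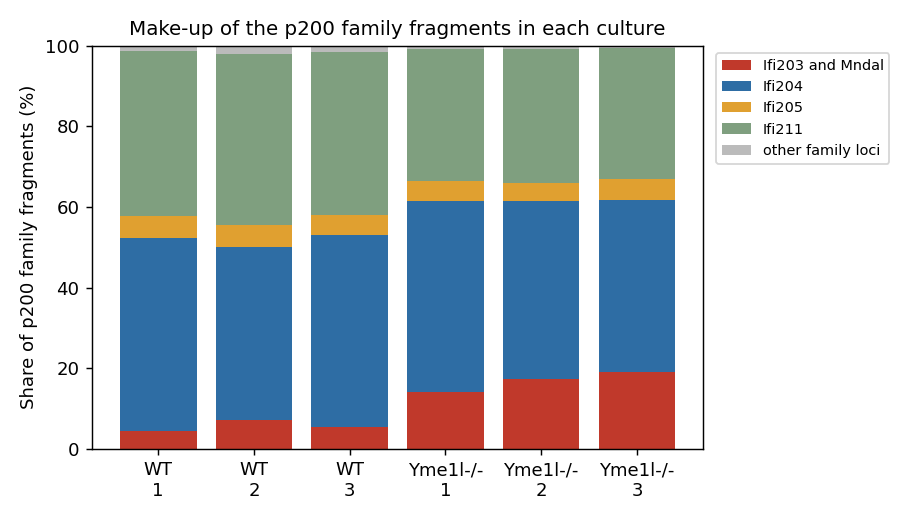
Share of all fragments assigned to the 13 p200 loci in each culture, in percent, by locus. The red segment, Ifi203 and Mndal, takes 4.25% to 6.99% in the WT cultures and 14.1% to 18.9% in the Yme1l-/- cultures, and the green segment, Ifi211, takes a smaller share in the latter.

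Of the 9 further p200 loci, Ifi211 alone passed the filter, and it was not called. It had 455, 548 and 519 fragments in WT and 479, 781 and 845 fragments in Yme1l-/- cultures, with a log2 fold change of -0.02 ± 0.10 (SE; edgeR's quasi-likelihood test, adjusted p = 0.888). Its gene model lies inside the span of Mndal, on the same strand, at 173896345 to 173913046, and its counts were deposited on a row of their own that carries the same span as the merged locus. Ifi207 had 6, 5 and 6 fragments in WT and 8, 8 and 6 in Yme1l-/- cultures. Ifi209 had 3, 7 and 4 fragments in WT and 0 in every Yme1l-/- culture, which was at least 1.66-fold lower against a floor of 3 fragments per library. The pseudogene Ifi203-ps had 1, 6 and 4 fragments in WT and 2, 4 and 2 in Yme1l-/- cultures. Ifi206, Ifi213 and Ifi202b had 7, 2 and 1 fragments in total over the 6 cultures, and Ifi208 and Ifi214 had 0.

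Near-identical stretches can let fragments move between family members, and how fragments with several matches were counted is not given in the sources used here. Of all 100-base windows of annotated exon sequence, 56.9% of those of Ifi211 were found again in another family gene, against 15% for Ifi205, 10.7% for Ifi204, 5.89% for Mndal and 2.84% for Ifi203. No window of Aim2 was shared. Ifi211 and Ifi205 shared 628 windows, and Ifi204 and Ifi211 shared 331. Mndal and Ifi203, which were merged by position, shared 81. Mndal also shared 108 with Ifi211, 108 with Ifi205 and 39 with Ifi204. The values of Ifi205, Ifi204 and Ifi211 as single genes are therefore uncertain. The value of the merged locus shares this uncertainty and is not that of a single gene.

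The cluster from Aim2 to Ifi205 spans 700 kb. In the flanks of 1 Mb on either side, 64 loci were listed, 7 passed the filter, and 1 was called higher and 3 lower, with a median log2 fold change of 0.07. On the Aim2 side the nearest tested loci were Dusp23, a phosphatase gene, with a log2 fold change of 0.77 ± 0.20, and Tagln2, which encodes an actin-binding protein, with -0.46 ± 0.05. No common direction was seen in the neighbourhood, and chromosome 1 as a whole had 150 loci called higher and 361 called lower of 794 tested.

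**Figure D3:**
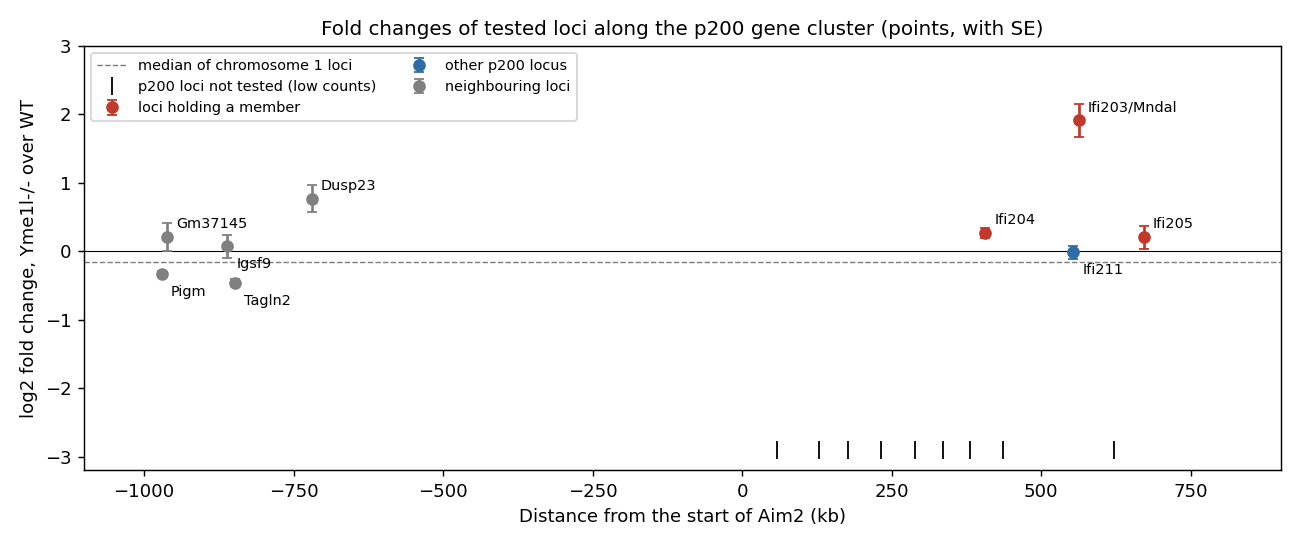
Log2 fold change, Yme1l-/- over WT, with SE, of each tested locus in the p200 cluster and of the tested neighbours within 1 Mb on the Aim2 side, against the distance from the annotated start of Aim2 in kb. Ticks at the bottom mark p200 loci that were not tested, Aim2 among them. The Ifi203 and Mndal locus (1.91) stands above its neighbours Ifi204 (0.26), Ifi211 (-0.02) and Ifi205 (0.20).

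Genes that work with AIM2 and other inflammasome sensors were examined as a list of 24. Of these, 10 passed the filter, 7 were called higher and 1 lower, and the median log2 fold change was 0.86. The adaptor gene Pycard had 0 fragments in every culture, and Casp1 had 0, 2 and 0 fragments in WT and 0, 0 and 2 in Yme1l-/- cultures. The cytokine genes Il1a and Il1b, whose products are released upon inflammasome activation, also had 0 fragments in every culture. Neither the sensor Aim2 nor its adaptor, its caspase or the genes Il1a and Il1b were thus present above a few fragments in either genotype. Il18, another cytokine gene of the list, was also under the filter, with 1, 0 and 3 fragments in WT and 2, 13 and 18 in Yme1l-/- cultures, and the groups overlapped. Gsdmd, which encodes the pore-forming gasdermin D, rose from 107, 112 and 107 fragments in WT to 1302, 1864 and 1963 fragments, by 3.50 ± 0.07 on the log2 scale (SE; edgeR's quasi-likelihood test, adjusted p = 1.64e-11). Gsdme, another gasdermin gene, rose by 1.94 ± 0.08. Naip2, an inflammasome sensor of bacterial proteins, had 1, 4 and 6 fragments in WT and 38, 39 and 49 in Yme1l-/- cultures, a log2 fold change of 3.03 ± 0.42. It passed the filter only through its Yme1l-/- cultures, and it was not tested where at least 10 counts in every sample were required. Il1rn, which encodes the antagonist of the interleukin-1 receptor, rose by 2.91 ± 0.59 with 16, 65 and 11 fragments in WT and 220, 314 and 434 in Yme1l-/- cultures, and by 4.08 without WT replicate 2, but its call was lost under 1 of 13 alternatives (edgeR's quasi-likelihood test, adjusted p = 0.0701). Casp4, Ninj1 and Txnip were the other loci called higher, and Nek7, a kinase gene needed by the NLRP3 inflammasome, fell by 0.80; these 4 genes are named for completeness, after their values were seen.

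**Figure D4:**
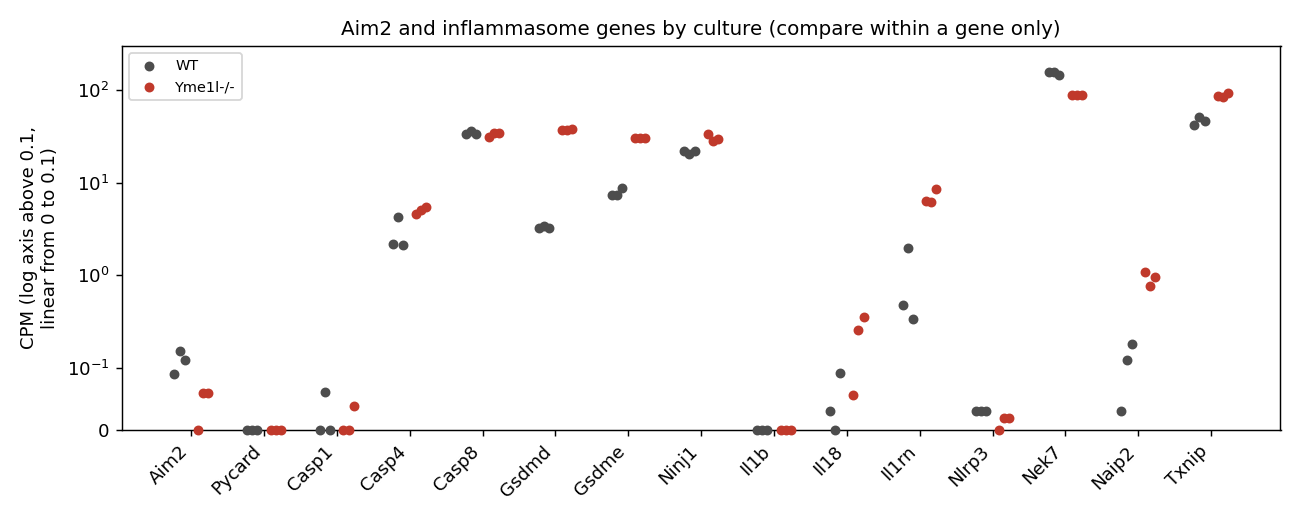
CPM of Aim2 and of 14 inflammasome genes in each culture, grey for WT and red for Yme1l-/-, on an axis that is logarithmic above 0.1 CPM and linear below it. Aim2, Pycard, Casp1 and Il1b lie at or near 0 in both genotypes, whereas all Yme1l-/- points of Gsdmd, Gsdme, Il1rn and Naip2 lie above the WT points.

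The genes of cytosolic and nuclear DNA sensing formed a list of 25, of which 24 passed the filter, 8 were called higher and 11 lower, with a median log2 fold change of -0.05. Both directions were thus present, and the split depended on the scaling, with 9 higher and 8 lower under upper-quartile scaling and 10 higher and 8 lower once chromosome medians were removed. Tmem173, which encodes STING, the adaptor with which the Ifi204 protein acts, had 630, 616 and 579 fragments in WT and 1150, 1777 and 1893 in Yme1l-/- cultures, and it rose by 0.92 ± 0.06 on the log2 scale. Mb21d1, which encodes the DNA sensor cGAS, was lower by a log2 fold change of -0.24 ± 0.05 (SE; edgeR's quasi-likelihood test, adjusted p = 0.00105), a direction that flipped to 0.12 (adjusted p = 0.0489) once chromosome medians were removed. The 4 largest differences among called loci were those of Trim30a, a TRIM family gene (4.56 ± 0.25, and 4.85 without WT replicate 2), Enpp1, whose product degrades the second messenger made by cGAS (-4.37 ± 0.42, and -3.98 without WT replicate 2), Zbp1, a sensor of Z-form nucleic acids (2.93 ± 0.24, and 3.29 without it), and Lrrfip1, which encodes a nucleic acid-binding protein (-1.09 ± 0.05).

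The interferon signalling list of 20 genes had 19 of them in the table, 17 past the filter, 11 called higher and 3 lower, with a median log2 fold change of 0.47. Genes of the factor that binds repeated GAAA sites were higher, with log2 fold changes of 1.76 ± 0.08 for Stat2 and 0.82 ± 0.05 for the merged locus of Irf9 and Rnf31. Irf7, a regulator of type I interferon genes, rose by 2.57 ± 0.11, and Usp18, a protease that dampens interferon signalling, by 3.10 ± 0.14; without WT replicate 2 these were 2.74 and 3.29. Ifnb1, the interferon beta gene, had 1 fragment in WT replicate 2 and 0 in the other 5 cultures. The rise of the merged Ifi203 and Mndal locus was thus of a size between those of Stat2 and Irf7, and that of Ifi204 was below each of them; these differences in size were not tested.

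The tested loci whose profile over the 6 cultures was most like that of the merged Ifi203 and Mndal locus, by the root mean square difference of centred log2 CPM, were C1qtnf1 (0.167), Trim21 (0.180) and Zfp345 (0.185). For Ifi204 they were Apoo (0.0229), Rad54l (0.0234) and the locus of Phospho1 and Zfp652 (0.0245), but 773 loci lay within 0.1 of its profile, which was thus a common one. For Ifi205 they were D3Ertd751e (0.0535), Edem2 (0.0546) and Parp16 (0.0628), with 87 loci within 0.1. The merged locus had 0 loci within 0.1. Loci named as predicted genes (Gm with digits), Rik or clones were left out of this search and of these counts.

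Because p200 genes are strongly expressed in leukocytes, markers of other cell types were read beside these results. Of 12 leukocyte markers, Adgre1 and Cd3e had 0 fragments in every culture and Ptprc, the pan-leukocyte marker, had at most 1. The list summed to 4.56 to 4.77 CPM in WT and 7.46 to 8.17 CPM in Yme1l-/- cultures. The 2 markers that passed the filter, Cd68 and Cd14, were called higher. The call of Cd68 held in 13 of 13 alternatives, but Cd14 was called in only 5 of 13. Under the filter, Lyz2 had 0, 2 and 0 fragments in WT and 12, 8 and 11 in Yme1l-/- cultures, Csf1r had 3, 2 and 5 against 11, 20 and 11, and Itgam had 4, 4 and 2 against 9, 14 and 29, so that the Yme1l-/- cultures lay above the WT cultures for these 3, as in 35.9% of all loci tested. Cd79a had 5, 5 and 1 fragments in WT and 0, 2 and 2 in Yme1l-/- cultures, and Fcgr1 had 8, 3 and 1 against 2, 2 and 6. The 4 endothelial markers summed to 0.888 to 1.44 CPM in WT and 1.67 to 2.00 CPM in Yme1l-/- cells. The 4 epithelial markers summed to 32.9 to 34.9 CPM in WT and 0.294 to 0.657 CPM in Yme1l-/- cells, and Krt18 made up nearly all of the WT sum. The part of such differences between the clones in the p200 values was not tested.

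**Figure D5:**
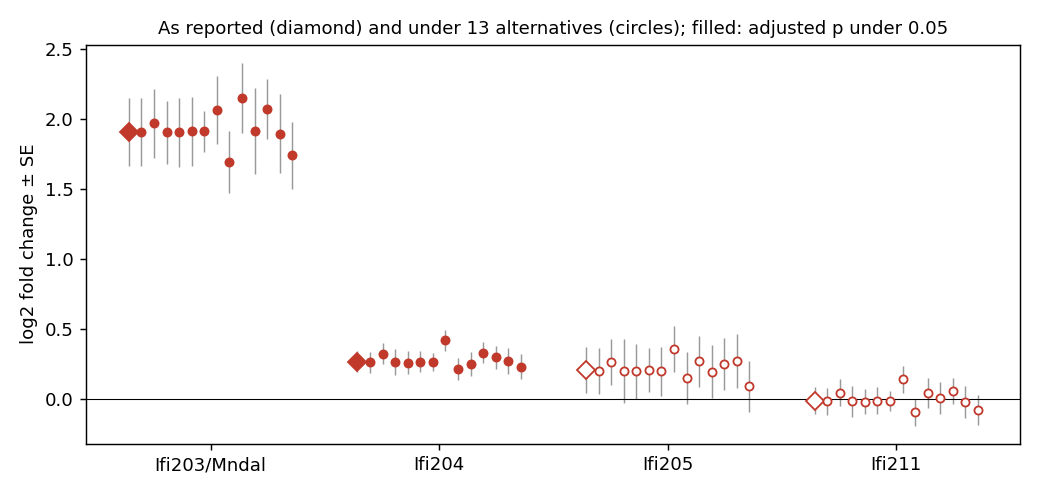
Log2 fold change ± SE, Yme1l-/- over WT, of the loci as reported (diamonds) and under 13 other ways of processing the counts (circles), filled where the adjusted p was under 0.05. The Ifi203 and Mndal locus stays between 1.69 and 2.16 and Ifi204 between 0.21 and 0.42, all filled, while the circles of Ifi205 and Ifi211 are all unfilled.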

How the data were processed

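Poly(A)-selected RNA of 6 cultures was sequenced from stranded libraries. Per the labels and the study, the authors aligned read pairs to mm10 (GRCm38) with HISAT2 2.0.4, assembled transcripts with StringTie 1.3.3 and compared the genotypes with Cuffdiff 2.2.1. The authors deposited raw fragment counts per locus, in which some overlapping genes, Ifi203 and Mndal among them, share a locus, and a comparison table from which only coordinates and the FPKM values, 1 combined value per genotype, were used. Its columns of fold changes, test statistics, p-values and q-values are the authors' own comparison and were not used.

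Here, counts were analysed with edgeR 4.0.16 in R 4.3.3. Loci were kept with filterByExpr (minimum count 10), scaled with TMM factors and compared with the robust quasi-likelihood test, two-sided, without covariates. Benjamini-Hochberg adjustment covered the whole set of tested loci, with a call set at an adjusted p under 0.05. The fitting code was run on simulated counts with the same dispersion in every locus and few changed loci. That setting is unlike these data, so the run checked the code only. Single values were compared with exact permutation tests. Depth was 33180867 to 49351107 fragments per library; exact intervals of count ratios and floors (3 counts) cover counting error only, whereas intervals of fitted folds include the spread between cultures. Alternatives were other scalings and filters, DESeq2 1.42.0, a replicate block, removal of chromosome medians, exclusion of merged loci and leaving out each culture. Gene models came from GENCODE, and promoters from RefSeq (GRCm38.p6).

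The members and lists were chosen with earlier results of these data known. Named were the 5 genes, other p200 loci with at least 10 fragments, Yme1l1, a set of pathway genes regardless of value, the 4 called loci of largest absolute change in each list, the 2 nearest tested neighbours on each side, and the 3 loci most alike in profile; some loci that the rule names are not reported here.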

Additional observations from a re-analysis of the deposited data

How the results depend on the processing

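The log2 fold change of the Ifi203 and Mndal locus lay between 1.69 and 2.16 over 13 alternatives and was called in 13 (adjusted p 2.02e-16 to 0.00102). Ifi204 lay between 0.21 and 0.42 and was called in 13 (0.00055 to 0.0443), so its call is the nearer to the threshold. Ifi205 lay between 0.09 and 0.36 and was called in 0 (0.0781 to 0.704). No member changed direction. With merged loci excluded, 1 of the 5 genes' loci was called, since the Ifi203 and Mndal locus was dropped. With no filter beyond a total of 1 count, 1 further p200 locus was called, Ifi209, lower in Yme1l-/- cells (edgeR's quasi-likelihood test, adjusted p = 0.000581), and 8 neighbouring loci were called in place of 4, more loci being tested; Aim2 had -1.44 ± 0.89 (adjusted p = 0.201). Deviations of cultures of the same number were weakly correlated, with mixed signs (0.2, -0.16 and 0.048). These values cannot settle whether the numbers pair the cultures. With the replicate block the Ifi203 and Mndal locus had 1.91, with an SE of 0.15 against 0.24 without it (edgeR's quasi-likelihood test, adjusted p = 9.64e-08). Ifi204 had 0.26 and Ifi205 0.19 in that fit. There 9794 loci were called in place of 9387, and no member's call changed. The inflammasome list had 7 calls in place of 8 (Il1rn was called in 12 of 13 alternatives, with adjusted p up to 0.0701). Upper-quartile scaling put 55.1% of calls higher, against 49.6%, with a median of all loci of 0.0552. Depth limits Aim2 and the other p200 loci under the filter, for which few fragments were counted.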

Other observations

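Outside the p200 family, 9 genes carried the exact 10 letters of the Ifi203 motif in the promoter window, and 6 of them were tested. Of these, 4 were called higher in Yme1l-/- cells, namely Ddx58, which encodes the RNA sensor RIG-I (log2 fold change 2.31 ± 0.08), Gm26797 (1.06 ± 0.32), Parp11 (0.88 ± 0.07) and Ripk1 (0.46 ± 0.05). Serpinb6a was called lower (-0.16 ± 0.04), and Pnrc1 (-0.09 ± 0.11) did not pass the test. Over all loci tested, 33.6% were called higher. These genes were looked at after the motif had been read from Ifi203, and the values are a description.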
